A study of Danio rerio with 6 samples.

Results

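Ikaros, encoded by *ikzf1*, is a zinc finger transcription factor of blood cells that binds DNA with its N-terminal fingers, pairs with other Ikaros family proteins through its C-terminal fingers, and is needed for lymphocyte development in mice and in zebrafish. The genes described here, 154 of 32105 measured, are those whose CPM (counts per library, scaled as given below) in every *ikzf1* mutant was at most 0.4 times that of any wild-type library, other than the best known B cell receptor, recombination and cytokine receptor genes. Among them are regulators that work in B cells of other vertebrates, such as the Oct coactivator POU2AF1, together with genes best known from neurons, such as the tau gene *maptb*.

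RNA was sequenced from 3 homozygous fr105 mutants (replicates 1 to 3) and 3 wild-type siblings (replicates 4 to 6), each library from an individual fish labelled as whole body at 5 days post fertilization (dpf) and all of mixed wild-type strain background. The fr105 allele is a CRISPR/Cas9 deletion within *ikzf1* that takes out part of exon 6, exon 7 and part of exon 8, so that the encoded protein keeps only the first zinc finger. It is a single allele without a rescue, and the deletion is present in every cell type. The total count per library was 34759504 to 38383935 in mutants and 38177112 to 39404324 in wild type.

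Counts were divided by the library total and scaled to a total of 1000000 (CPM). A gene was chosen if its wild-type mean was at least 1 CPM and its highest mutant CPM was at most 0.4 times its lowest wild-type CPM. Of 32105 genes in the table, 13698 had a wild-type mean of at least 1 CPM, and 168 of these passed the ratio, which is 1.23%. Genes of the antigen receptor and of some other named families were then set aside by symbol, which removed 14 and left 154 genes. The opposite rule, with the highest wild-type CPM at most 0.4 times the lowest mutant CPM, was met by 502 of 13756 genes with a mutant mean of at least 1 CPM. The 154 genes were thus selected on the CPM of all 6 libraries, and the difference between mutants and wild type in these genes is described below without a test. Across all genes, the quasi-likelihood test of edgeR, with p adjusted after Benjamini and Hochberg, called 1457 of 16630 genes lower in mutants (8.76%) and 1834 higher (11.0%); 150 of the 154 genes passed its filter on low counts and all 150 were among the lower calls, which the choice of genes had fixed.

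**Figure D1:**
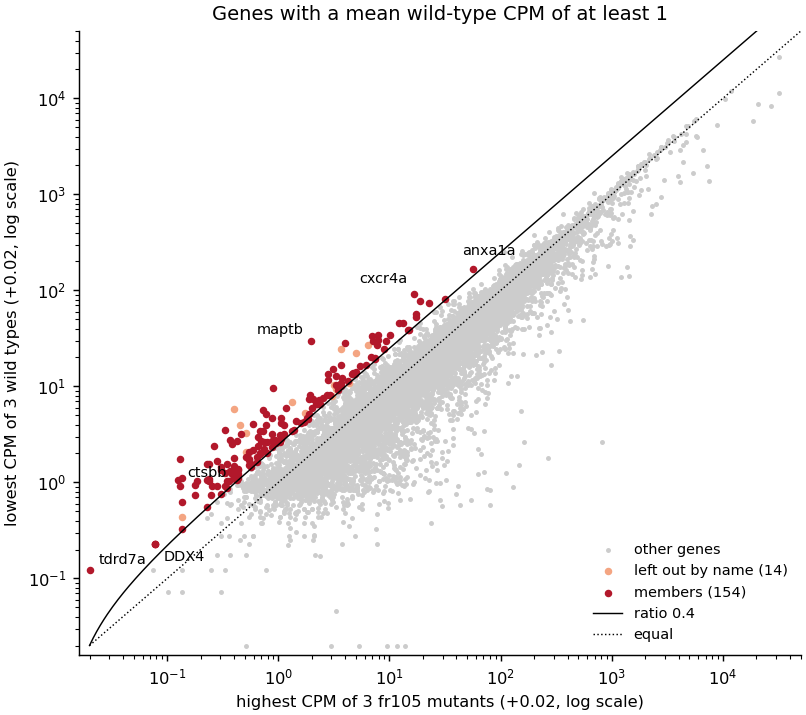
Highest CPM of the 3 fr105 mutants (x axis) against lowest CPM of the 3 wild types (y axis) for 13698 genes, both on log scales with 0.02 CPM added. The 154 chosen genes (red) and the 14 left out by name (orange) lie on or above the solid line at a ratio of 0.4, and most of the other genes (grey) lie near the dotted line of equality.

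The total RNA of the 154 genes was 424, 380 and 322 CPM in mutants 1, 2 and 3, against 1934, 2564 and 2145 CPM in wild types 4, 5 and 6. The mean was 375 ± 51.0 CPM in mutants and 2214 ± 321 CPM in wild type (SD, n = 3 each), a 5.90-fold lower sum. Few of the genes were silent in mutants: a single gene had no count in any mutant library, and 13 had no count in at least 1 mutant library. They were therefore reduced rather than absent, with a median 6.46-fold lower mean, 35 genes at least 10-fold lower and 15 genes less than 4-fold lower. None had 0 counts in a wild-type library, which the rule allowed only for genes without a count in any mutant. Most of the 154 were also weakly expressed, with a median wild-type mean of 4.21 CPM, against 16.5 CPM for all genes with at least 1 CPM. A wild-type mean under 5 CPM was found for 84 of them and one over 20 CPM for 27. In bulk RNA, fewer cells of a type and less RNA per cell cannot be told apart.

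At the edge of the rule, *snx18b*, *lgals2a*, *smpd3* and *akt3b* had the largest accepted ratios of highest mutant to lowest wild-type CPM, 0.392, 0.393, 0.398 and 0.399. Just outside were *dennd5b*, *thrap3a*, *nlrp3* and *sgip1b*, with 0.402, 0.403, 0.406 and 0.407. The groups of *dennd5b* did not overlap either, at 4.82, 2.60 and 2.53 CPM in mutants and 12.0, 27.8 and 20.7 CPM in wild type. The limit of 0.4 thus cut through a continuous range of ratios.

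The choice was repeated without each library in turn. Without mutant 1, 2 or 3, the rule gave 193, 212 and 192 genes, and without wild type 4, 5 or 6 it gave 210, 201 and 212. The sets without a mutant held all 154 genes by construction, and those without wild type 4, 5 or 6 held 150, 153 and 152 of them.

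Targeting was looked at first in *ikzf1* itself. The gene had 1385, 1223 and 837 CPM in mutants, against 229, 174 and 268 CPM in wild type, which is a log2 fold change of 2.37 with a standard error of 0.23 (edgeR, adjusted p = 3.62e-04). All mutants lay above all wild types. A count per gene does not show the deleted exons, so this value does not check the deletion, and no junction reads were analysed here.

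Defining genes of skeletal muscle and lens were nearly absent, which goes against the label of whole body. The 10 matched skeletal muscle genes summed to 3.26 to 4.69 CPM in mutants and 2.57 to 6.32 CPM in wild type, and 5 of them had no count in any library. The 9 lens genes summed to at most 1.42 CPM. Not all lists of other tissues were low: the skin list summed to 940 to 1065 CPM in mutants and 1126 to 1557 CPM in wild type, nearly all of it from *icn*, and the kidney tubule list to 120 to 226 CPM in mutants and 114 to 229 CPM in wild type, mostly from *slc20a1a*. In contrast, 6 neutrophil genes summed to 52213, 38054 and 41319 CPM in mutants, against 24682, 32100 and 37900 CPM in wild type, and 7 erythroid genes to 24618 to 30655 CPM in mutants and 9997 to 21730 CPM in wild type. Libraries rich in blood cell RNA were thus measured, with higher sums of both lists in every mutant, although the neutrophil sums of mutant 2 and wild type 6 were close. Of the neutrophil genes, *mpx* and *lyz* were higher in every mutant, whereas *npsn*, *mmp13a*, *mmp9* and *cpa5* overlapped between genotypes. Of the erythroid genes, *slc4a1a* and *epor* overlapped and the others were higher in every mutant. The part of these differences in the lower CPM of the 154 genes was not tested.

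Transcription factors and chromatin proteins accounted for 13 of the genes, with a median 7.44-fold lower mean. POU2AF1, the coactivator that joins Oct proteins on immunoglobulin promoters in mammals, had 14.9, 7.36 and 4.40 CPM in mutants, against 38.5, 106 and 67.3 CPM in wild type. The Oct factor gene *pou2f2b* had 3.23, 3.64 and 1.99 CPM in mutants, against 10.1, 16.2 and 11.0 CPM in wild type. Both were lowest in mutant 3 and highest in wild type 5. *irf4b*, a copy of the interferon regulatory factor that mammalian plasma cells need, had 7.03, 4.92 and 2.65 CPM in mutants, against 65.1, 30.6 and 29.6 CPM in wild type. Its wild-type values were highest in replicate 4 and not in replicate 5, so that the B cell regulators did not all share the same order among wild types.

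*hmgb3a*, coding for a DNA-bending protein of progenitor cells, had 11.5, 17.2 and 10.9 CPM in mutants and 56.9, 90.3 and 79.7 CPM in wild type. The Foxo factor gene *foxo1b* was 4.34-fold lower, *zeb2b* 7.44-fold and *arid3c* 5.98-fold; relatives of all of these act in lymphocyte development in mice. *ved*, a homeobox repressor known from the ventral side of the zebrafish gastrula, had 1.28, 3.94 and 2.99 CPM in mutants, against 28.5, 29.4 and 46.1 CPM in wild type, a 12.7-fold lower mean. *prdm8b*, from a family of zinc finger proteins with a PR domain, had 0.261, 0.438 and 0.345 CPM in mutants, against 3.20, 4.24 and 5.05 CPM in wild type. Among wild types, the highest library was 1.62 and 1.58 times the lowest for *ved* and *prdm8b*, near the median of 1.71 for the 154. Both were highest in wild type 6.

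Cell surface genes came next. *cxcr4a*, a receptor for the chemokine Cxcl12 that guides migrating cells and holds blood cells in marrow in mammals, had 16.5, 13.8 and 10.8 CPM in mutants, against 120, 139 and 92.4 CPM in wild type. Its mean was 8.56-fold lower. The tetraspanin gene *cd37*, known from the surface of mature B cells, had 13.1, 7.36 and 5.58 CPM in mutants and 46.0, 95.7 and 68.2 CPM in wild type. *ccr9b*, one of the copies of a chemokine receptor gene of thymus homing, had 0.0521, 0.219 and 0.0575 CPM in mutants, against 1.26, 1.80 and 1.07 CPM in wild type. *prf1.3*, one of the perforin genes whose products form pores in target cells, had 0.104, 0.383 and 0.173 CPM in mutants and 1.55, 1.46 and 2.33 CPM in wild type. Of the genes of at least 1 CPM, 1 of 8 cxcr, 1 of 9 ccr and 1 of 4 prf1 genes were chosen. However, *cxcr5* met the thresholds too and was set aside only by name. It had 0.495, 0.383 and 0.0575 CPM in mutants, against 3.25, 7.58 and 4.04 CPM in wild type. *prf1.3* and *ccr9b* rested on few reads.

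Other receptors with lower RNA couple to G proteins. *crhr1*, the receptor for corticotropin-releasing hormone, had 0.313, 0.109 and 0.288 CPM in mutants, against 3.51, 6.53 and 3.60 CPM in wild type. *gpr4*, a proton-sensing receptor, had 0.208, 0.164 and 0.0575 CPM in mutants and 1.55, 2.67 and 3.63 CPM in wild type. *gpr184* was 4.66-fold and ADGRL3, an adhesion receptor of the latrophilin family, 5.32-fold lower. In each of these genes no mutant exceeded 0.657 CPM and no wild type fell below 1.44 CPM.

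**Figure D2:**
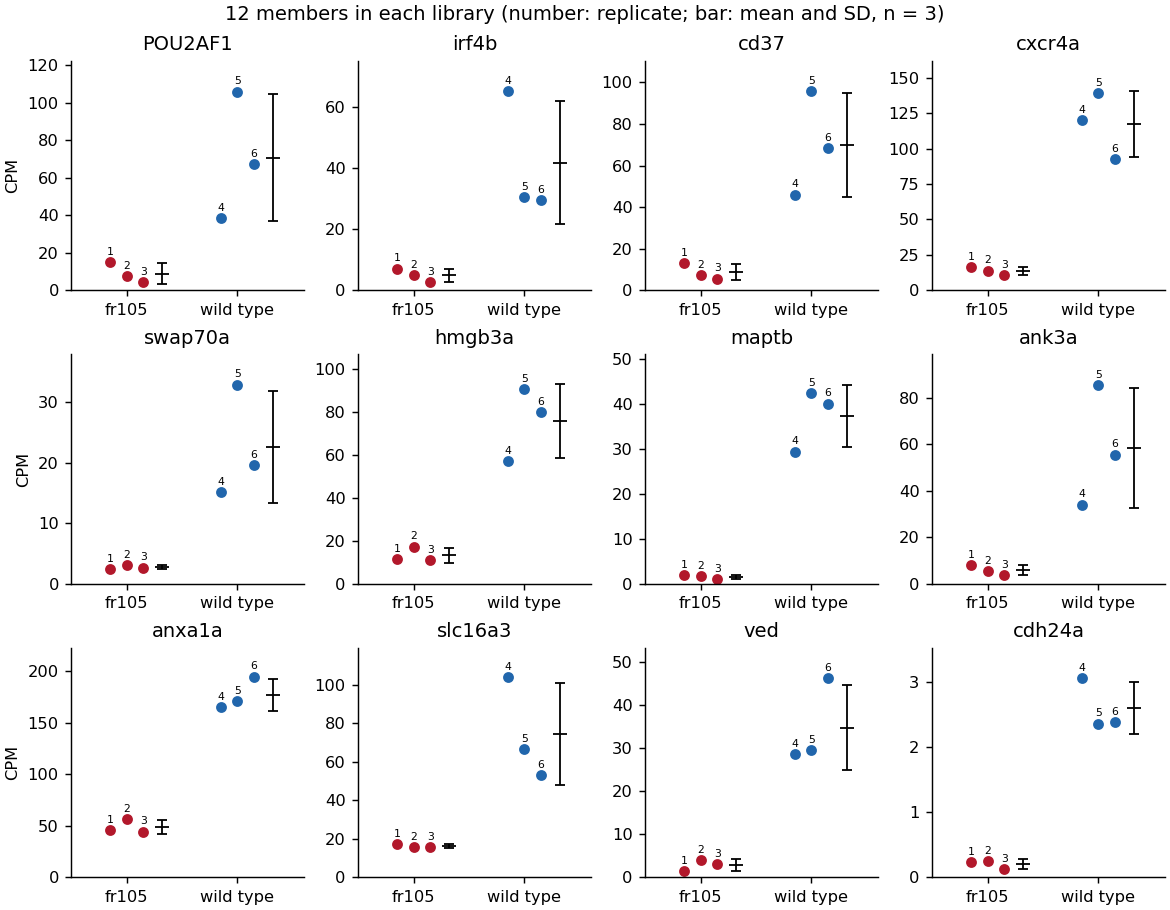
CPM of 12 chosen genes in each library, with fr105 mutants (red, left) and wild types (blue, right); numbers give the replicate and black bars the mean and SD (n = 3). Among wild types, POU2AF1, *cd37*, *swap70a* and *ank3a* are highest in replicate 5, whereas *irf4b* and *slc16a3* are highest in replicate 4.

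The 15 genes of intracellular signalling were 3.59-fold to 8.95-fold lower. *swap70a*, whose mammalian counterpart acts on the actin skeleton of B cells, had 2.42, 3.06 and 2.62 CPM in mutants, against 15.1, 32.9 and 19.6 CPM in wild type. The Ras exchange factor gene *rasgrf2a* had 8.88, 6.59 and 4.34 CPM in mutants and 24.5, 52.1 and 43.1 CPM in wild type. *dtx4a*, a relative of Deltex E3 ligases of the Notch pathway, was 6.57-fold lower. All of these were highest in wild type 5 and lowest in wild type 4, and 11 of the 15 signalling genes were highest in wild type 5. The adaptor genes *sh2d4a* and *sla2a* were 6.01-fold and 3.79-fold lower. The inositol phosphatase gene *inpp5jb* reached 0.930 CPM in mutant 2, against 2.54 CPM in its lowest wild type. The kinase gene *akt3b*, which lay nearest to the limit, had 1.51, 1.67 and 1.41 CPM in mutants and 5.37, 8.53 and 4.19 CPM in wild type.

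Several of the genes are best known from neurons. *maptb*, coding for the microtubule-binding protein tau, had 1.93, 1.59 and 1.06 CPM in mutants, against 29.4, 42.4 and 40.1 CPM in wild type. The mean was 24.4-fold lower, and the ratio of the highest mutant to the lowest wild type, 0.0655, was the third smallest of the 154. *ank3a*, coding for an ankyrin that anchors channels in axons, had 7.92, 5.34 and 3.65 CPM in mutants and 34.0, 85.6 and 55.5 CPM in wild type. *fgf12a*, a gene of intracellular fibroblast growth factors that bind sodium channels, had 0.208, 0.0547 and 0.345 CPM in mutants, against 4.43, 4.27 and 2.77 CPM in wild type. *syngr1b*, a synaptic vesicle protein gene, was 9.79-fold lower, *stxbp5a*, a regulator of vesicle fusion, 9.44-fold, and *dpysl5b*, from a family of axon guidance proteins, 4.80-fold. Among wild types, *ank3a* and *syngr1b* were highest in replicate 5, and *fgf12a* and *stxbp5a* in replicate 4.

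RNA of neurons themselves was scarce in all libraries. The 14 neuron genes listed as markers summed to 2.84, 3.12 and 5.15 CPM in mutants, against 5.58, 6.14 and 5.25 CPM in wild type, and ELAVL3 had no count in any library. The genes best known from neurons were therefore reduced in libraries with little other neuronal RNA in either genotype.

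Channels and transmitter receptors were represented by 11 genes, each at least 5.40-fold lower by the mean CPM. Both genes for the ATP-gated channel P2X3 were among them. *p2rx3a* had 0, 0.164 and 0.0575 CPM in mutants, against 1.23, 1.00 and 1.29 CPM in wild type, and *p2rx3b* had 0.104, 0.109 and 0.374 CPM in mutants, against 4.19, 2.39 and 1.24 CPM in wild type. Of 19 genes with names beginning in kcn and a wild-type mean of at least 1 CPM, 4 were chosen, namely the potassium channel genes *kcnh5a*, *kcnk1b* and *kcnq2a* and *kcnip4b*, which codes for a calcium-binding partner of such channels, which is 21.1%, against 1.12% of all such genes. Of 240 solute carrier genes, 3 were chosen, 1.25%, which is near the share of all such genes. These shares are a description of small numbers of genes. The name families were picked with the chosen genes known, so a high share is not evidence of enrichment. The shares were not matched for expression either. The kcn share did not stand out, as the cdh and p2r shares were close to it and the zeb and enpp shares larger. None of the adr, sema or dnah genes was chosen. The glutamate receptor gene *gria3b* had 2 counts in each mutant and 8, 78 and 117 counts in wild types 4, 5 and 6, a pooled ratio of 31.9 (95% counting interval 10.6 to 157, wild type over mutant). CACNG3, a regulatory subunit of glutamate receptors in mammals, had 0.234, 0 and 0.115 CPM in mutants, against 0.891, 2.26 and 6.19 CPM in wild type. Both were lowest in wild type 4 and highest in wild type 6.

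Adhesion, matrix and secreted proteins were encoded by 14 genes. *anxa1a*, a gene of annexin A1, a phospholipid-binding protein known to limit inflammation in mammals, had the largest CPM of the 154 genes, uncorrected for gene length. It had 45.3, 56.4 and 44.1 CPM in mutants, against 165, 171 and 195 CPM in wild type. The galectin gene *lgals2a* had 24.2, 27.8 and 31.8 CPM in mutants and 80.8, 88.9 and 102 CPM in wild type. With 3.65-fold and 3.24-fold lower means, both changed less than most of the 154 and varied little within each genotype. Both genes of cadherin 24, a cell adhesion protein, were chosen. *cdh24a* had 0.234, 0.246 and 0.115 CPM in mutants, against 3.06, 2.36 and 2.39 CPM in wild type, and *cdh24b* had 0.156, 0.0547 and 0 CPM in mutants, against 0.917, 2.62 and 2.33 CPM in wild type. The protease gene *adamts15a* had 0.0521, 0.0547 and 0.115 CPM in mutants and 2.86, 2.36 and 1.09 CPM in wild type, and the related *adamts5* was 15.1-fold lower. *enpp1* and *enpp2*, whose products cleave extracellular nucleotides and make lysophosphatidic acid in mammals, were 4.34-fold and 6.07-fold lower.

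Among 14 genes of metabolism and transport, *slc16a3*, coding for a lactate transporter, had 17.2, 15.7 and 15.4 CPM in mutants, against 104, 66.6 and 53.0 CPM in wild type. *atp11a*, a phospholipid flippase gene, had 10.1, 4.65 and 4.55 CPM in mutants and 34.0, 79.3 and 40.2 CPM in wild type. The order of the wild types thus differed between these genes, with *slc16a3* highest in replicate 4 and *atp11a* in replicate 5. *gbe1a*, a copy of the glycogen branching enzyme gene, had 0.104, 0.0547 and 0.0575 CPM in mutants, against 1.07, 3.55 and 1.04 CPM in wild type. *ctsbb*, a cathepsin B gene, had 0, 4 and 0 counts in mutants and 202, 109 and 68 counts in wild type, a pooled ratio of 89.2 (95% counting interval 24.4 to 742, wild type over mutant). The pair *b3gnt7* and *b3gnt7l*, related to a glycosyltransferase that builds sugar chains, were 5.65-fold and 6.02-fold lower.

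A set of 6 genes of the germ line, meiosis and cilia stood apart through their wild-type values. DDX4, the vasa RNA helicase of germ cells, had 0, 0 and 2 counts in mutants, against 240, 8 and 66 counts in wild types 4, 5 and 6, a pooled ratio of 148 (95% counting interval 26.1 to 5876, wild type over mutant). The meiotic cohesin gene *smc1b* had 0, 0 and 2 counts in mutants and 134, 8 and 44 counts in wild type. *tdrd7a*, a Tudor domain gene of germ granules, was the gene with no count in any mutant, against 116, 4 and 84 counts in wild type. With 3 read pairs per mutant library taken as the limit, its mutant mean was at least 10.7-fold lower. For these genes, wild type 5 held 4 to 8 counts and came close to the mutants, and the wild-type mean of at least 1 CPM rested on wild types 4 and 6.

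*cngk*, a potassium channel gene known from zebrafish sperm, had 0, 0 and 4 counts in mutants and 232, 12 and 76 counts in wild type. The cilium gene *cfap251* had 0.208, 0.164 and 0.0575 CPM in mutants, against 2.91, 0.540 and 0.761 CPM in wild type, and *tekt1* 0.313, 0.192 and 0.173 CPM in mutants, against 1.81, 0.899 and 0.914 CPM in wild type. All 6 genes were highest in wild type 4, which held for 37 of the 154. This was not a feature of the 154 at large. The orders 4, 5, 6 and 4, 6, 5 were seen in 16.2% and 7.79% of them, against 14.7% and 18.7% of all genes with at least 1 CPM.

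Some markers outside the 154 had the same order among wild types. PIWIL1, which acts in germ cells, had 2, 0 and 4 counts in mutants and 334, 2 and 50 counts in wild types 4, 5 and 6, and the cilium gene *daw1* 0, 2 and 4 counts in mutants and 96, 4 and 36 counts in wild type. PIWIL2, of the same family, did not, with 345, 101 and 312 counts in mutants and 380, 546 and 301 counts in wild type. The 10 germ cell genes of the marker list that were not chosen summed to 24.1, 15.3 and 22.4 CPM in mutants, against 62.6, 41.9 and 37.8 CPM in wild type, with NANOS3 at 0 in all libraries. The 7 cilium genes that were not chosen summed to 2.01, 0.985 and 1.55 CPM in mutants and 14.0, 2.13 and 4.82 CPM in wild type. The 8 liver genes had that order too, at 2.45, 5.39 and 2.62 CPM in mutants and 14.0, 1.39 and 4.29 CPM in wild type. The part of any of these in the reduction of the 6 genes was not tested. With wild type 5 as the only wild-type library, the rule gave 388 genes, which held 148 of the 154 and lacked these 6. That split was fixed by the minimum of 1 CPM, which none of the 6 reached in wild type 5.

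**Figure D3:**
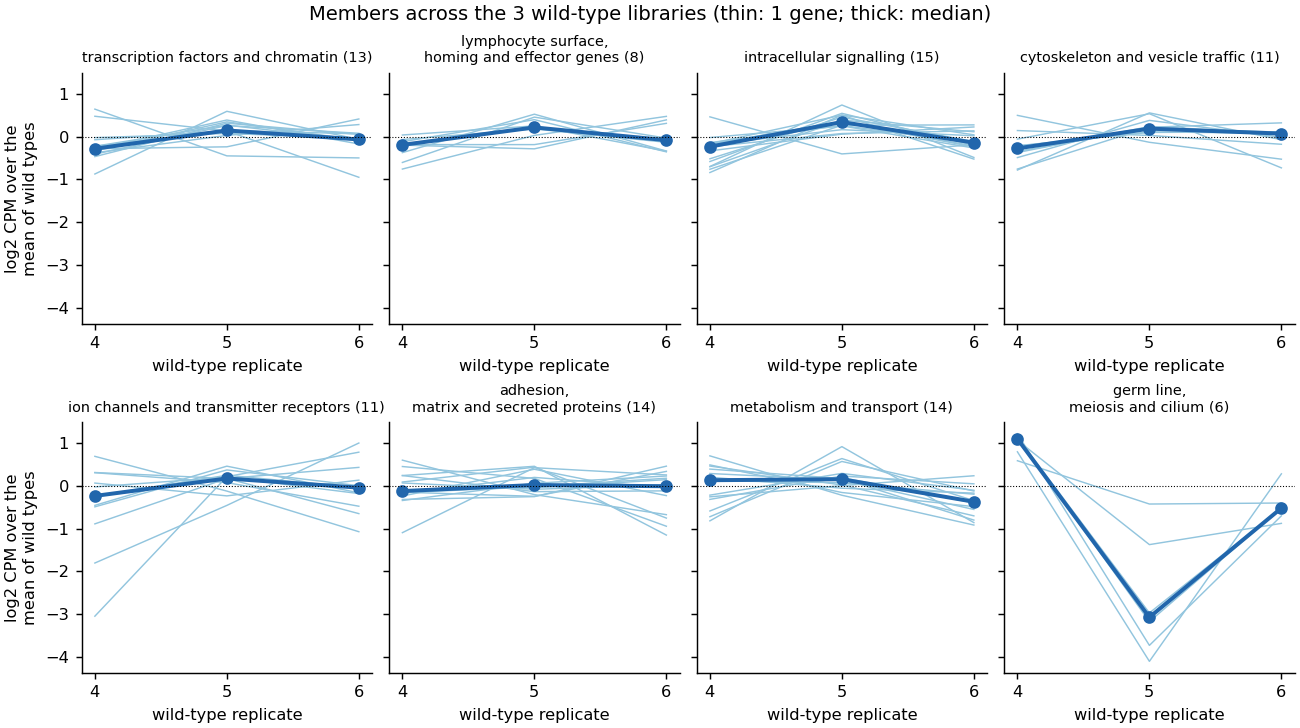
CPM of the chosen genes in wild types 4, 5 and 6, as log2 over the mean of the wild types of the same gene (y axis), by group of function with the number of genes in brackets; thin lines are single genes and thick lines medians. The germ line, meiosis and cilium genes dip in wild type 5, whereas the medians of the transcription factor, surface, signalling and cytoskeleton groups are highest there.

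The order among libraries of the same genotype was not fully used by the rule. Wild type 5 was the highest of the wild types for 55.8% of the 154 genes, against 32.3% of all genes with at least 1 CPM. The full order 5, 6, 4 was seen in 62 of the 154 (40.3%) and in 18.5% of all genes. Among mutants, the order 1, 2, 3 was seen in 61 of the 154 (39.6%) and in 13.6% of all genes, and 54 of the 154 (35.1%) were highest in both mutant 1 and wild type 5, against 7.62% of all genes. The genes also varied more between wild types, with a median ratio of the highest to the lowest of 1.71, against 1.27 for all genes. This comparison was not matched for expression, as the median wild-type mean was 4.21 CPM, against 16.5 CPM for all genes with at least 1 CPM. These shares are given with no test, as genes of a library share its cells.

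B cell markers outside the 154 varied in their order among wild types. *cd79b*, a B cell receptor subunit gene set aside by name, had 4.98, 3.15 and 1.99 CPM in mutants, against 22.2, 47.1 and 37.6 CPM in wild types 4, 5 and 6, and *pax5*, the B cell identity factor gene, 2.61, 1.18 and 1.01 CPM in mutants, against 3.51, 8.74 and 9.26 CPM in wild type. *cd22*, an inhibitory receptor gene of B cells, had 101, 50.2 and 109 CPM in mutants and 133, 84.3 and 36.6 CPM in wild type, so that the groups overlapped and wild type 4 was the highest. The 12 B cell genes of the marker list outside the 154 summed to 334, 277 and 309 CPM in mutants and 453, 487 and 393 CPM in wild type. Of the Ebf factor genes on that list, the one with the symbol EBF1 had at most 2 counts in any library. The other, shown as *ebf3a*, had 4.90, 5.12 and 4.98 CPM in mutants, against 10.9, 19.8 and 12.7 CPM in wild type. The 13 T cell genes summed to 185, 241 and 193 CPM in mutants, against 326, 317 and 300 CPM in wild type. The T cell sum was carried by *ccr9a*, a chemokine receptor gene of thymus homing, and the other 12 genes summed to 88.0, 86.8 and 102 CPM in mutants, against 58.6, 61.2 and 61.5 CPM in wild type. In mutants most of that came from *itk*, with 51.1, 52.6 and 68.6 CPM in mutants and 9.09, 9.87 and 9.21 CPM in wild type. The B cell sum was thus lower in all mutants. The rule fixed this in part, as *cd79a*, *cd79b* and *ighd* met its thresholds and were set aside only by name. The sum of the T cell list was higher in all mutants once *ccr9a* was left out, a step chosen after its values were seen. This rise rested on *itk* alone. With *itk* left out too, the sum of the remaining T cell genes was lower in every mutant than in every wild type. The part of these lists in the reduction of the 154 was not tested.

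**Figure D4:**
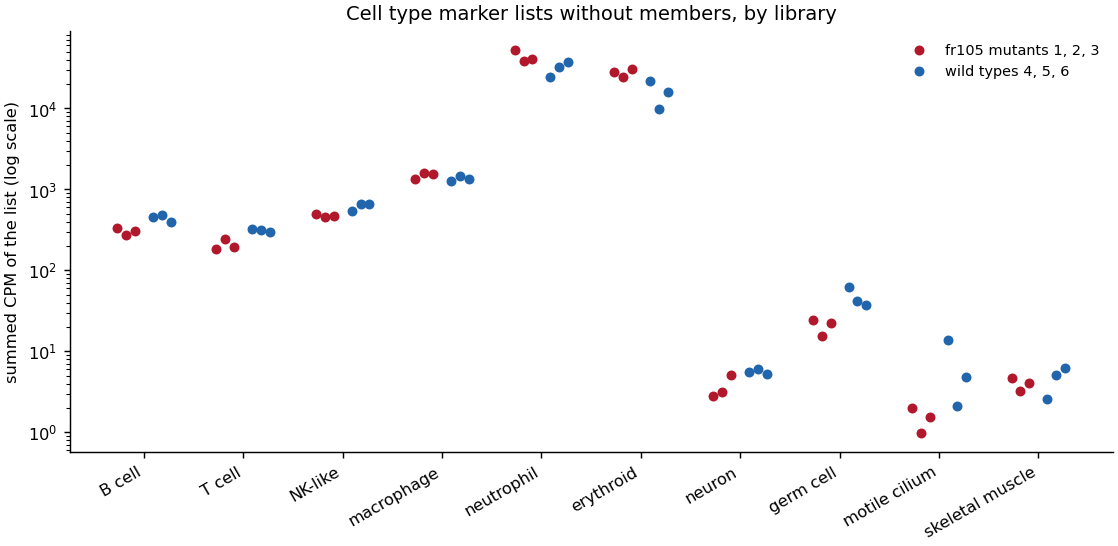
Summed CPM (log scale) of cell type marker lists without the chosen genes, for fr105 mutants 1, 2 and 3 (red, left of each pair) and wild types 4, 5 and 6 (blue, right). The B cell list, which keeps *cd79a*, *cd79b* and *ighd* although they met the thresholds, is lower in all mutants. The T cell list, whose sum is carried by *ccr9a*, is lower too. Neutrophil lists reach 52213 CPM, and neuron and skeletal muscle lists reach at most 6.32 CPM.

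Genes without an established name made up 45 of the 154, and several of them had large CPM. si:ch73-362m14.2 had 22.6, 20.1 and 12.4 CPM in mutants, against 74.0, 95.4 and 137 CPM in wild type. The gene ENSDARG00000071261, which has only a clone-type symbol, had 10.7, 14.3 and 19.0 CPM in mutants and 82.3, 77.6 and 83.4 CPM in wild type, a narrow range among wild types. si:ch211-195b13.1 had 6.25, 6.89 and 6.30 CPM in mutants, against 80.0, 57.5 and 33.4 CPM in wild type. The non-coding RNA linc-iglc3 had 14.6, 6.10 and 4.40 CPM in mutants and 39.1, 71.2 and 42.4 CPM in wild type, and si:dkey-24p1.1 7.92, 5.55 and 4.17 CPM in mutants and 30.5, 59.5 and 44.3 CPM in wild type. *plaat1l*, of a family of phospholipid acyltransferases, has a symbol and is not one of the 45. It had 12.1, 6.81 and 4.89 CPM in mutants and 46.1, 94.6 and 66.4 CPM in wild type. The last 3 genes named here shared mutant 1 and wild type 5 as the highest libraries.

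Some of the smallest ratios were also found among such genes. zgc:158868 had 0.234, 0.875 and 0.518 CPM in mutants and 9.59, 11.8 and 13.0 CPM in wild type. si:ch73-186j5.2 had 2, 4 and 0 counts in mutants and 34, 62 and 74 counts in wild type, a pooled ratio of 26.7 (95% counting interval 8.83 to 132, wild type over mutant). The gene si:dkey-265j8.1 had 0.703, 0.520 and 0.518 CPM in mutants and 6.26, 6.48 and 5.68 CPM in wild type, a narrow range among wild types. si:ch211-217a12.1, listed as a GPT gene of alanine transamination, had 0.573, 0.438 and 0.316 CPM in mutants, against 7.49, 4.03 and 7.74 CPM in wild type. Pairs of adjacent clone names, si:ch73-106n3.1 with si:ch73-106n3.2 and si:dkey-238d18.8 with si:dkey-238d18.9, were reduced together, by 6.36-fold and 6.11-fold and by 6.91-fold and 4.87-fold. By its default, which the methods give for tools in general, featureCounts drops reads that align to several places, so the values of near-identical pairs are uncertain.

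Zebrafish keep many genes as pairs from an ancient genome duplication, so that a chosen gene can be set beside its partner. A partner that met the rule was itself chosen and not counted among the others. The other partners were tested in the same 6 libraries that chose the genes, and genes of a library share its cells. This comparison is therefore not independent of the rule. A partner of the same name, or listed under the same human symbol, was found for 49 of the 154. Among these were *cdh24a* with *cdh24b* and *p2rx3a* with *p2rx3b*, whose partners were themselves chosen, and 45 other partner genes, of which 34 passed the filter on low counts. In the test across all genes, 6 of these 34 were called lower (17.6%), against 8.76% of all genes, 2 were called higher and 26 did not pass the threshold. The median log2 fold change of the 34 was -0.21, against -0.00 for all genes.

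The partners called lower included those of *pou2f2b* and *irf4b*, of *ccr9b* and of *slc16a3*. *pou2f2a* had 2.45, 3.99 and 3.11 CPM in mutants, against 7.70, 12.6 and 8.32 CPM in wild type (log2 fold change -1.57, adjusted p = 0.00562, edgeR). *irf4a* had 3.13, 2.98 and 3.45 CPM in mutants and 8.25, 10.2 and 8.43 CPM in wild type (log2 fold change -1.48, adjusted p = 6.99e-04, edgeR), and *ccr9a* 96.8, 154 and 91.4 CPM in mutants and 267, 256 and 239 CPM in wild type (log2 fold change -1.14, adjusted p = 0.00734, edgeR). The partner of *slc16a3*, listed as si:ch211-234h8.7, had 7.40, 5.55 and 9.64 CPM in mutants, against 20.7, 29.1 and 23.9 CPM in wild type (log2 fold change -1.70, adjusted p = 0.00137, edgeR). For these genes, both copies were lower in every mutant than in every wild type. The partners of *sgsm1b* and *plekho1a* were called with adjusted p = 0.0212 and 0.0490 (edgeR); the first call was lost without wild type 5 (adjusted p = 0.0587), and the second without any of the mutants or without wild type 5.

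For other genes only the chosen copy was far lower. *cxcr4b*, the partner of *cxcr4a*, had 647, 912 and 837 CPM in mutants, against 947, 1642 and 1122 CPM in wild type, a log2 fold change of -0.62 with a standard error of 0.23 that did not pass (adjusted p = 0.0897, edgeR). *zeb2a* had 151, 160 and 156 CPM in mutants and 137, 114 and 152 CPM in wild type (log2 fold change 0.22, standard error 0.12, adjusted p = 0.212, edgeR). The second *foxo1* gene did not pass either (log2 fold change 0.13, standard error 0.14, adjusted p = 0.564, edgeR). The second *swap70* gene had 157, 158 and 151 CPM in mutants and 133, 159 and 156 CPM in wild type. *hmgb3b* was the other way round, with 61.9, 54.2 and 61.7 CPM in mutants, against 43.6, 41.4 and 36.9 CPM in wild type (log2 fold change 0.55, adjusted p = 0.00980, edgeR). *akt3a* was also called higher (log2 fold change 0.43, adjusted p = 0.0432, edgeR), a call that was lost without any 1 of the 6 libraries. *mapta*, the partner of the tau gene, had at most 0.230 CPM in any library and was not tested. The difference between the copies of a pair was not itself tested.

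**Figure D5:**
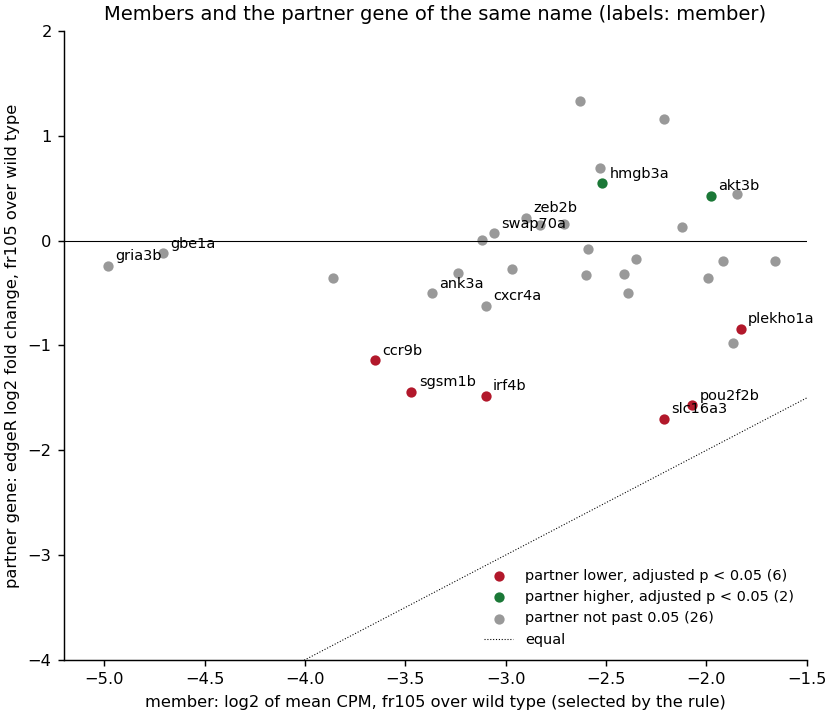
Log2 of the mean CPM of fr105 mutants over wild type for a chosen gene (x axis, fixed to be negative by the rule) against the edgeR log2 fold change of its partner gene (y axis), for 34 partners. The 6 partners called lower (red) include those of *irf4b*, *pou2f2b*, *ccr9b* and *slc16a3*, the 2 called higher (green) are those of *hmgb3a* and *akt3b*, and 26 (grey) did not pass.

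Lists of related genes outside the 154 were read from the same fit, in which 8.76% of all genes were called lower and 11.0% higher, with a median log2 fold change of -0.00. The lists were drawn up with earlier results of these data known, so their counts are a description and not independent evidence. Of 38 tested genes of B lineage factors and signalling, 15 were called lower and 4 higher, with a median log2 fold change of -0.37. The transcription factor genes *foxp1b* and *irf8* had log2 fold changes of -1.41 and -1.28 (adjusted p = 0.00224 and 2.07e-04, edgeR). *irf8* also stood on the list of nucleic acid sensing and interferon. The 4 called higher were *tcf3a*, *blk*, *arid3a* and *cd81*, with log2 fold changes of 0.53, 0.83, 1.75 and 0.47. Other genes of the B lineage list, such as *btk* and *cd40*, did not pass the threshold. Of 28 T and NK lineage genes, 12 were called lower and 2 higher. One of those higher was *itk*, a kinase of T cell receptor signalling (log2 fold change 2.62, adjusted p = 2.40e-05, edgeR). Of 18 genes of endosomal nucleic acid sensing and interferon, 6 were called lower and none higher. Over the lists, 32 different genes were called lower, and 21 without mutant 3.

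The 154 genes were also looked up in published marker lists of single-cell clusters from adult kidney marrow of fr105 mutants and wild type. Of the 154 genes, 6 (3.90%) were on any of these lists, against 697 of 13698 genes with a wild-type mean of at least 1 CPM (5.09%). The 6 made up 0.861% of those 697, near the 1.12% that the 154 make up of all such genes. The B cell list (cluster 6) held *lgals2a*, *plaat1l* and si:ch73-362m14.2, 3 of its 131 such genes, and the T cell list (cluster 7) none of its 111. *maptb* stood on the lists of clusters 2, 4 and 5. The study assigned cluster 2 to immature myeloid cells and cluster 4 to innate lymphocytes, and its table of lineages gave none for cluster 5. *anxa1a* with *lgals2a* stood on the list of macrophages (cluster 3). For 148 of the 154 genes, these lists gave no cell type.

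Neighbours among the genes were counted, with no background from other sets of genes. In the gene order of the GRCz12tu assembly, in which 129 of the 154 could be placed by symbol, 4 pairs lay within 3 gene positions of each other, for example *cdh24b* beside *carmil3*. On the chromosome of *ikzf1* lay 5 of the 129 (3.88%), against 4.12% of all placed genes with at least 1 CPM, and the nearest, *rgs17*, was 150 gene positions away.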

How the data were processed

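Libraries were stranded, from poly-A RNA, and read from both ends. The authors aligned reads with STAR 2.5.2b-1 to GRCz10 and counted them with featureCounts 1.6.0.1; the deposited table gives unscaled counts of 32105 genes. Per the methods, tools ran at default settings unless another was named; featureCounts ignores strand by default, so reads of overlapping or antisense genes cannot be told apart. Of values from 1 to 4 counts, 78.0% to 79.9% were even, so intervals and the limit at 0 counts were computed over read pairs (2 counts each; 6 counts are 3 pairs) and cover counting error only. Precision otherwise rests on 3 libraries per genotype; no exact permutation test of 3 against 3 can go below p = 0.1. Whether the libraries came from separate clutches was not stated.

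CPM, ratios and sums were computed with pandas 2.3.3. EdgeR 4.0.16 used TMM, filterByExpr and the two-sided quasi-likelihood test, with Benjamini-Hochberg adjustment at 0.05; DESeq2 1.42.0 was an alternative. The members, lists and groups of function were chosen with earlier results of these data known. Values in each library are given for the 15 members with the largest wild-type CPM, the 15 with the smallest ratio, those at 0 in all mutants, those at the limit, related pairs and members of known role. A gene table paired 26269 genes with symbols, 26361 with the study's own names, which were used for the choice by symbol. Clusters of adult marrow were not reanalysed. Results for a few genes are not reported here.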

Additional observations from a re-analysis of the deposited data

How the results depend on the processing

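The number of genes that met the rule was 153 with TMM or DESeq2 scaling, 75 with a ratio limit of 0.3 and 254 with 0.5, and 203 or 118 with a wild-type minimum of 0.5 or 2 CPM. It was 192 to 212 when each library was left out, 155 when only the shown symbol was used to leave genes out, and 388 with wild type 5 as the only wild-type library; the last 2 settings were added after the data were seen. Genes called in either direction numbered 3291, 4193 with DESeq2, and 1927 to 2837 without each library (1938 without mutant 1, 1927 without mutant 3, 2152 without wild type 5). List genes called lower numbered 32, and 21 to 30 without each library. No tested value reversed. The cause of these shifts was not tested, other than that leaving out a library loosens the rule and weakens the test. No paired analysis was possible because the groups share no replicate number. Promoter motifs were not searched, since no sequence table was used here.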

Other observations

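The proteins encoded by *pde6c*, the cone phosphodiesterase, and *rgrb*, of a family of retinal opsins, are known from the eye. *pde6c* had 0.417, 0.520 and 0.547 CPM in mutants, against 1.96, 1.75 and 1.55 CPM in wild type, and *rgrb* 0.261, 0.164 and 0.115 CPM in mutants, against 0.891, 1.03 and 1.52 CPM in wild type. The other 6 retina genes of the marker list summed to at most 0.0575 CPM in any library, so that no further gene of that list accompanied them. The acetylcholine receptor gene *chrna1* and the calcium channel subunit gene *cacnb1*, counted above among the channels, and *mybpha*, named for a myosin-binding protein, are known from muscle. The first 2 were 7.72-fold and 8.14-fold lower, and *mybpha* had 0.313, 0.328 and 0.230 CPM in mutants and 0.864, 1.03 and 1.17 CPM in wild type. All of these genes rest on few read pairs.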
